A study of Mus musculus with 24 samples.

Results

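Mice that had lived in environmental enrichment (ENR) until 14 months of age were compared with mice of the same age from standard cages (STD), and the members were all aged mice of the deposited table. They were 7 Aged ENR and 7 Aged STD mice, 14 of the 19 mice in that table and of the 24 libraries in the labels. DNA of the micro-dissected dentate gyrus of single female C57BL/6JRj mice had been profiled by reduced representation bisulfite sequencing (RRBS), which reads methylated cytosines in the CpG-rich fragments released by a restriction enzyme. ENR was a large enclosure with tunnels and toys that were moved at intervals, shared by 10 mice, whereas STD mice lived 5 to a cage. Housing was assigned at 6 weeks of age, and the remaining 5 mice of the table were Young STD animals aged 1.5 months. No source used here ties a mouse to a cage, so a shared cage and the housing cannot be told apart.

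The dentate gyrus is the entry region of the hippocampus and consists mostly of granule neurons, to which new neurons are added in adult life. Enrichment is known to raise the number of these adult-born neurons in rodents. Methylation of CpGs is dense in gene bodies, repeats and most intergenic DNA and sparse at CpG-rich promoters, except on the X chromosome of females, where the promoters of the silenced copy are methylated and those of the active copy are not.

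The question was which genes and classes of region differed in methylation with housing, and whether mice of one housing varied more among themselves. CpGs were averaged in fixed windows of 1 kb with 3 or more CpGs, over promoters (1000 bases on either side of any annotated start of a basic transcript of the gene) and over gene bodies (the gene outside its own promoters). Differences are given as ENR minus STD in percentage points. The regions below carry the differences described most closely and are printed from the plus strand of GRCm38 (mm10), with the CpGs that entered the averages in capitals. The Eaf1 site is intronic, the Ryr3 stretch is intronic, the Slc39a7 stretch spans an intron and a coding exon (its last 2 CpGs also lie within 1000 bases of a start of the overlapping transcript Gm20427), and the other 3 stretches are intergenic. The Eaf1, Ryr3 and chromosome 10 stretches hold 1 of 4, 3 of 6 and 5 of 6 CpGs of their feature, and the CpGs with the largest difference of Ryr3 (47.8 points, position 113018052) and of the chromosome 10 window (-38.4 points, position 118126054) lie outside them.
Eaf1 intron, chr14:31497311-31497412: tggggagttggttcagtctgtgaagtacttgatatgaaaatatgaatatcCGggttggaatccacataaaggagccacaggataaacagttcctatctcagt
X chromosome window, chrX:53977107-53977286: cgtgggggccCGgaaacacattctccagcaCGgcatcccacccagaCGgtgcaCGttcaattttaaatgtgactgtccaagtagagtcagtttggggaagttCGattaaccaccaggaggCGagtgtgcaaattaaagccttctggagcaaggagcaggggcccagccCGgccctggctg
Ryr3 intron, chr2:112753699-112753891: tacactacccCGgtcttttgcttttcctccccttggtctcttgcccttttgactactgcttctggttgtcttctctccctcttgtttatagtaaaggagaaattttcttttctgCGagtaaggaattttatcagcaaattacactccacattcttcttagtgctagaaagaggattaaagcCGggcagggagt
Chromosome 13 window, chr13:104510134-104510265: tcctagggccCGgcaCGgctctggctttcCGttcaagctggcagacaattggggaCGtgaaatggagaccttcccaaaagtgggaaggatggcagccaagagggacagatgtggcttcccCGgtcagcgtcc
Chromosome 10 window, chr10:118126181-118126265: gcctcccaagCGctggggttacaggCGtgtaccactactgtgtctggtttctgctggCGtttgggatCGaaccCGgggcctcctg
Slc39a7 intron and exon, chr17:34030481-34030625: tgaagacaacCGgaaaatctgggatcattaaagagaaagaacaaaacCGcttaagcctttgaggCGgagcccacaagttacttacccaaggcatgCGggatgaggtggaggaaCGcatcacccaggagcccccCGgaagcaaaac

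After the strands were joined, the table held 692740 CpG sites, of which 403379 (58.2%) were measured in at least 5 of 7 mice of each housing and entered the averages. Each STD mouse had values at 463722 to 653212 sites and each ENR mouse at 469232 to 616557. The number of reads behind a value is unknown, so no interval of a single value can be given. At sites with 50% to 80% methylation in Young STD mice, exact 0% or 100% made up 29.8% to 71.2% of the values of an STD mouse and 28.4% to 63.2% of those of an ENR mouse. The libraries also differed in which sites they covered. A composition index, the mean Young STD level of the sites with a value in a mouse, ranged from 20.6% to 38.8% in STD (median 30.2%) and from 24.6% to 37.2% in ENR (median 31.0%). The index did not differ between the housings beyond the spread (difference 2.95 points, two-sided exact permutation test, p = 0.311). Below 25% lay 3 STD mice (replicates 3, 4 and 6) and 1 ENR mouse (replicate 4). Shifts over classes, feature kinds and gene lists are given with and without these 4 mice. Window counts by class and the profile around starts are the exceptions and are given with all mice only.

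Methylation was slightly higher in ENR than in STD in each of 17 region classes, by less than the SD of the STD mice. Over the 107319 CpGs measured in all 14 mice, the mean was 15.6% ± 1.51 (SD, n = 7) in STD and 16.3% ± 0.934 in ENR. Promoter CpGs had 4.21% ± 0.489 in STD and 4.44% ± 0.311 in ENR. Exons had 25.1% ± 2.15 and 25.9% ± 1.49, introns 25.5% ± 3.09 and 26.98% ± 1.91, and intergenic CpGs 36.4% ± 2.74 and 37.7% ± 1.65. The largest differences were on the X chromosome, with 3.52 points, and at CpGs of 20% to 80% methylation in Young STD mice, with 3.11 points. With single mice left out, these 2 differences ranged from 2.24 to 4.97 and from 1.84 to 4.93 points. No class passed the exact permutation test (adjusted p from 0.402 to 0.547 over 17 classes, with a smallest possible p of 0.000583).

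The means of single mice overlapped in every class. On the X chromosome, STD mice ranged from 34.9% to 51.3% (median 44.5%) and ENR mice from 39.1% to 52.1% (median 46.0%). The X difference was 3.06 points among the 4 mice per housing of library series 27 and 4.13 points among the 3 of library series 37, the 2 series named in the sample labels. In CpGs of intermediate Young STD level, STD mice ranged from 26.3% to 44.7% and ENR mice from 31.0% to 44.5%. The 4 lowest means of both classes belonged to the 4 mice with a composition index below 25%. With the index in the model, the X difference was 0.889 points (p = 0.113, adjusted p = 0.961, exact permutation test) and the intermediate class differed by 0.285 points. Among mice with an index of at least 25% (4 STD, 6 ENR), the X difference was 0.343 points, and 14 of the 17 classes had the lower mean in ENR.

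**Figure D1:**
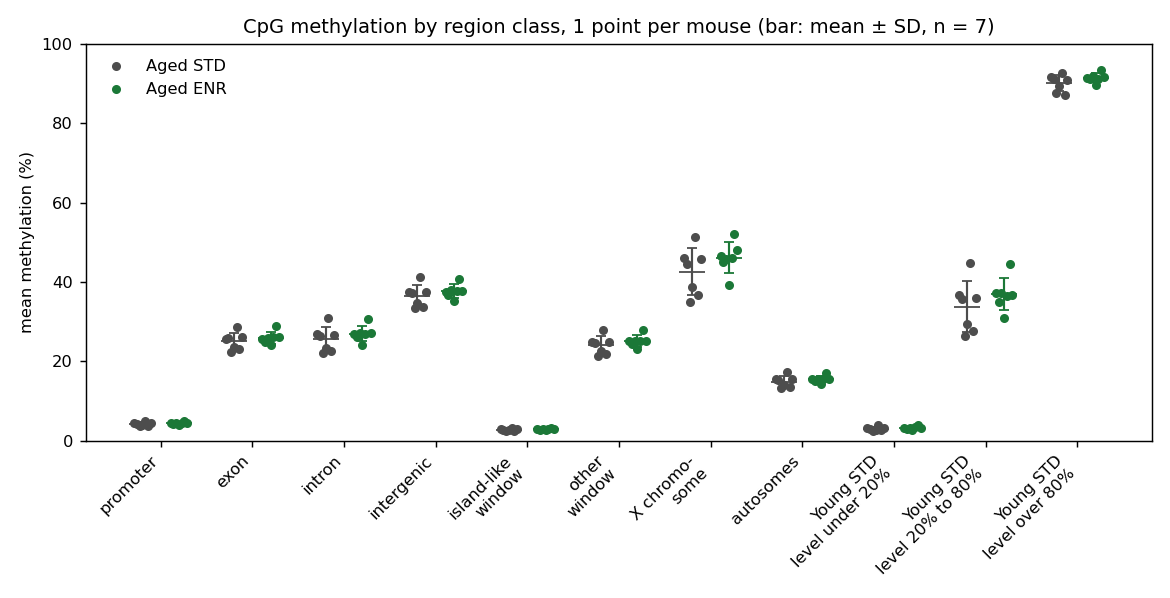
Mean CpG methylation (y axis, percent) in 11 of the region classes (x axis), with 1 point per mouse and bars for mean ± SD over 7 Aged STD mice (grey) and 7 Aged ENR mice (green). The 2 housings overlap in every class, and the X chromosome has mean levels of 42.6% in STD and 46.1% in ENR.

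Around transcription starts, both housings had the same profile. In the 200 bases after a start, methylation was 2.52% ± 0.363 in STD and 2.65% ± 0.199 in ENR. It was 21.1% ± 1.69 and 22.1% ± 1.41 at 3000 to 5000 bases upstream, and 17.5% ± 1.99 and 18.5% ± 1.45 at the same distance downstream. The difference was 1.03 and 1.02 points in these outer bins, and lay within the SD of either group in all bins.

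No 1 kb window and no promoter passed the test across all features, and 1 gene body did. Of 40978 windows tested with limma, 0 had an adjusted p under 0.05 (0.00%), the threshold for a call, and 1537 (3.75%) had an unadjusted p under 0.05. Of 15704 promoters, 0 were called (0.00%), and 550 (3.50%) had an unadjusted p under 0.05. Of 9268 gene bodies, 1 was called (0.0108%), and 341 (3.68%) had an unadjusted p under 0.05. No other setting of limma called a promoter, and a window was called only without STD replicate 2 (chr5:120223001-120224000, 3 intergenic CpGs). There STD mice had 24.6% to 79.6% (5 mice, the highest being replicate 2) and ENR mice 76.3% to 100% (6 mice), and the difference was 49.8 ± 8.84 points with all mice (adjusted p = 0.948, limma) and 58.8 ± 6.42 without that mouse (adjusted p = 0.0342). The smallest adjusted p was 0.948 among windows and 0.951 among promoters.

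With all mice, window differences over 10 points in the direction of ENR outnumbered those in the direction of STD, and without the 4 mice of low index they did not. A difference over 10 points was seen in 2339 windows higher in ENR (5.71%) and 963 lower (2.35%). The excess with all mice was found in every class. Promoters had 320 windows over 10 points higher (1.74%) and 105 lower (0.571%) of 18373, and exons 245 (7.93%) and 111 (3.59%) of 3091. Introns had 924 (9.82%) and 382 (4.06%) of 9412, and intergenic DNA 850 (8.41%) and 365 (3.61%) of 10102. CpG-island-like windows, of any class, had 89 (0.805%) and 19 (0.172%) of 11055. Gene bodies were shifted most, with a median difference of 1.24 points and 64.3% higher in ENR, against 0.0648 points and 52.5% for promoters. With single mice left out, the gene body median ranged from 0.636 points (without STD replicate 3) to 2.15 points (without STD replicate 5). With the composition index in the model, the median difference was 0.01002 points for windows, 0.000196 for promoters and 0.0234 for gene bodies. Of the 1774 windows with an unadjusted p under 0.05, 1010 were then lower in ENR, against 586 of 1537 without the index. For gene bodies, 205 of 375 were lower with the index and 72 of 341 without it. Among mice with an index of at least 25%, a difference over 10 points was seen in 1092 windows higher in ENR and 1252 lower, of 30838 tested, and 433 and 644 windows had an unadjusted p under 0.05. The median difference of the gene bodies was then -0.363 points, with 45.4% of 8094 higher in ENR, and that of the promoters 0.0254 points, with 50.9% of 13470 higher. The 4 mice left out were mostly STD and had the lowest means on the X chromosome and at intermediate CpGs. Leaving them out thus takes low values mostly from STD, and this cut was chosen after seeing the data. What their low means owe to the library or to the housing was not tested.

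**Figure D2:**
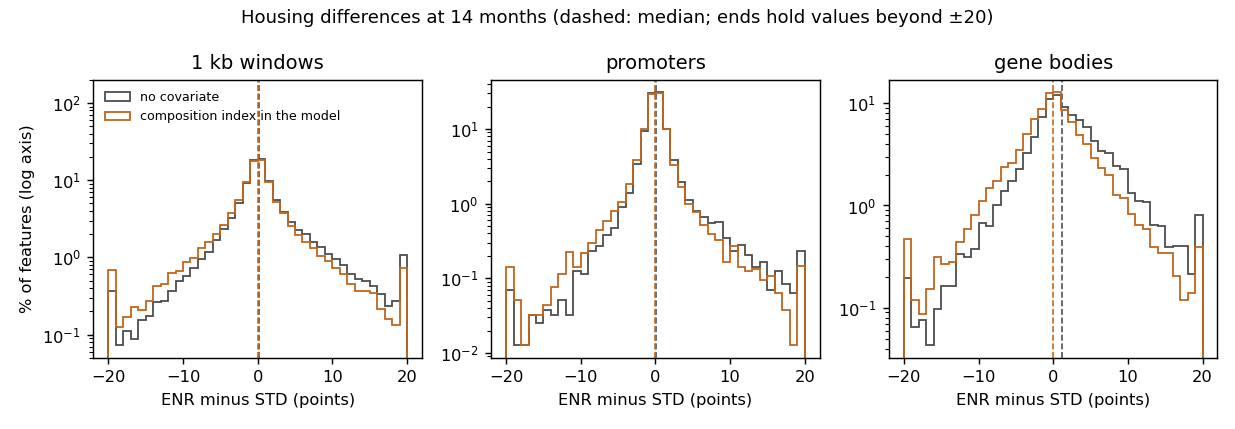
Share of features (y axis, percent, log scale) by the difference between housings (x axis, ENR minus STD, percentage points) for 40978 windows, 15704 promoters and 9268 gene bodies. The grey line has no covariate and the orange line has the composition index in the model, with dashed lines at the medians. The median of the gene bodies moves from 1.24 to 0.0234 points with the index.

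The gene body called was that of Eaf1 (ENSMUSG00000021890, chr14:31494399-31509858, plus strand), which encodes a partner of the ELL transcription elongation factors. It was measured at 4 CpGs. The 5 STD mice with a value had 7.05% to 12.5% (median 10%), and the 7 ENR mice had 0% in 6 mice and 4.41% in the remaining one. The groups did not overlap, and the difference was -9.17 ± 1.23 points (SE, limma, adjusted p = 0.0325). The call rests on 1 of the 4 CpGs. The 3 CpGs at 31495413, 31495418 and 31495448 lie within 1000 bases of a start of the neighbouring gene Mettl6 and were at 0% in every aged mouse measured. The entire difference came from the intronic CpG at position 31497361, the capitals in the Eaf1 line above.

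At this Eaf1 CpG, 6 STD mice had 28.2% to 50% (median 39.4%, mean 39.2% ± 7.34), and 5 ENR mice had 0% in 4 cases and 17.6% in the remaining one. ENR replicates 2 and 7 had no value there, so their gene body values of 0% come from the other 3 CpGs. The 3 Young STD mice with a value had 33.3%, 35.7% and 57.9%. The site was singled out after its values were seen, so no test is given for it. The Eaf1 call held with library series as a covariate (adjusted p = 0.0195, limma) and was lost with the composition index (adjusted p = 0.232), where the difference was -9.15 ± 1.50 points. It was also lost with the replicate block (adjusted p = 0.985) or a variance prior without a trend (adjusted p = 0.840). The same held when any of STD replicates 2, 3, 4 and 6 or ENR replicates 1, 2, 3, 4, 5 and 7 was left out (adjusted p from 0.0796 to 0.140).

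The windows, promoters and gene bodies described next had the smallest unadjusted p in each direction among those with values in all 14 mice, apart from the neighbours Fam3a, G6pdx, Mlxip and Neurod1. They are examples and not calls, with adjusted p of 0.948 for windows, 0.951 for promoters and 0.981 for gene bodies (limma). Members of gene lists, described after them, were mostly those with the smallest unadjusted p of their list, in whichever mice had a value, and had adjusted p of 0.951 or more. Groups without any overlap were rare: 6 of 19132 windows (0.0314%), 5 of 11595 promoters (0.0431%) and 2 of 5925 gene bodies (0.0338%).

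Among promoters, Ikbkg (ENSMUSG00000004221, chrX:74393290-74453854, plus strand) had the smallest p. It encodes the regulatory subunit of the kinase complex that activates NF-κB. STD mice had 5.78% to 21.2% (median 11.5%) and ENR mice 23.3% to 57.9% (median 47.1%), so every ENR mouse lay above every STD mouse. None of its CpGs was measured in all 14 mice, and the difference was 28.8 points with each CpG centred on its own mean. As reported, the difference was 30.6 ± 6.37 points (SE), and all 9 CpGs were higher in ENR. It was 28.2 points in library series 27 and 33.9 points in series 37, and 28.3 points among mice with a composition index of at least 25%. Young STD mice had 20.5% to 42.5%, which overlapped both aged groups.

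The 9 Ikbkg CpGs belong to 2 stretches that are also promoters of oppositely transcribed neighbours. The first stretch, of 5 CpGs from 74393000 to 74393044, is the promoter of Fam3a, which had 19.5% ± 8.49 in STD (n = 6) and 54.6% ± 14.2 in ENR (n = 7). The second, of 4 CpGs from 74428837 to 74428881, lies at G6pdx, the X-linked glucose-6-phosphate dehydrogenase. The G6pdx promoter had 5.09% ± 7.95 in STD and 22.8% ± 16.6 in ENR (n = 6 each), a difference of 17.7 ± 6.57 points (SE). STD replicate 5 had values only in the second stretch, and STD replicate 7 and ENR replicate 7 only in the first, so the ranges of Ikbkg do not compare the same CpGs in every mouse. Both stretches were higher in ENR, and neither neighbour passed the test (adjusted p = 0.951, limma).

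X-linked promoters lay mostly above STD, and their level in a mouse moved with the composition index of its library. Of 435 tested, 336 (77.2%) had the higher mean in ENR and 77 (17.7%) differed by more than 10 points in that direction, against 51.8% and 1.14% of 15269 autosomal promoters. Their median level was 21.3% in STD, 26.2% in ENR and 30.6% in Young STD mice, and 0 were called (unadjusted p under 0.05 in 28, limma). Over the 286 X promoters with values in all 14 mice, the median of a mouse was 8.72% to 35.4% in STD (middle mouse 22.0%) and 14.0% to 36.0% in ENR (middle mouse 26.2%). The lowest medians, 8.72%, 11.2%, 12.3% and 14.0%, belonged to the 4 mice with the lowest composition index, and the highest, 35.4% and 36.0%, to the 2 mice with the highest index. Without the 4 mice of low index, 206 of 380 X promoters (54.2%) were higher in ENR, and 35 were more than 10 points higher and 29 more than 10 points lower. Of 13090 autosomal promoters, 50.8% were then higher, 0.642% more than 10 points higher and 0.978% more than 10 points lower. With the index in the model, 240 of 435 (55.2%) were higher, and 45 and 18 were more than 10 points higher and lower.

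**Figure D3:**
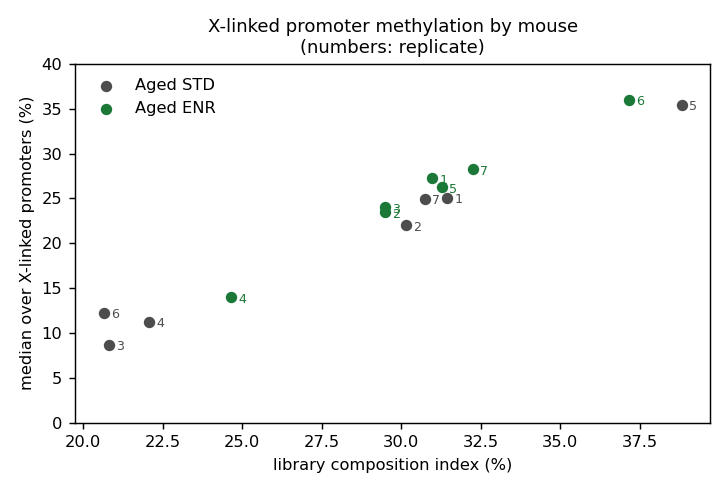
Median methylation over 286 X-linked promoters (y axis, percent) against the library composition index (x axis, percent), with 1 point per mouse for Aged STD (grey) and Aged ENR (green) and replicate numbers beside the points. The 4 mice with an index below 25% have medians of 8.72% to 14.0%, and the 2 with the highest index have 35.4% and 36.0%.

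The X window shown above (chrX:53977001-53978000, intergenic, 2500 bases from the nearest start, that of Gm15482) also had higher values in ENR. STD mice had 0% to 53.5% (median 8.35%) and ENR mice 29.1% to 59.97% (median 42.9%). The difference was 32.8 ± 8.46 points (SE), all 7 CpGs were higher in ENR, and the ranges overlapped at STD replicate 5 (53.5%), while the other 6 STD mice had 0% to 17.5%. It was 44.0 points in library series 27 and 17.99 points in series 37. Young STD mice had 19.3% to 85.7%.

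The autosomal promoters named as higher in ENR had low levels and small differences. Of all 15269 autosomal promoters, 174 (1.14%) were more than 10 points higher in ENR and 62 (0.406%) more than 10 points lower. With the composition index in the model, these counts were 133 and 118. Among mice with an index of at least 25%, 84 (0.642%) of 13090 were more than 10 points higher and 128 (0.978%) more than 10 points lower. The promoter window of the non-coding transcripts 5033428I22Rik and Gm34030 (chr8:57333001-57334000) had 0% to 2.21% in STD (median 0.355%) and 1.44% to 11.8% in ENR (median 6.76%), and 6 of 7 ENR mice lay above every STD mouse. Fbxo27, an F-box protein that recognises glycoproteins, had 0% to 6.25% in STD (median 3.77%) and 2.08% to 14.5% in ENR (median 11.1%). The promoter of Ppp1r11, an inhibitor of protein phosphatase 1, had 0% to 2.10% (median 0.609%) and 1.00% to 5.37% (median 2.96%). In each of these 3 features the groups overlapped at 1 ENR mouse. Fam19a4, Ppp1r3g, the Ubqln1 window and Gm15747, whose 35 CpGs are those of Mlxip, differed by 1.42 to 3.17 points in the same direction.

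Promoters that were lower in ENR reached 0% in many ENR mice. Tnfsf15, a cytokine of the tumour necrosis factor family, had 2.29% to 33.3% in STD (median 11.4%) and 0% to 7.25% in ENR (median 0%), a difference of -14.4 ± 4.42 points (SE) with all 3 CpGs lower. Nt5c2, a cytosolic nucleotidase, had 1.18% to 7.81% in STD (median 2.76%) and 0% to 0.810% in ENR, with 5 ENR mice at 0% and no overlap. Prdm9, the methyltransferase that sets meiotic recombination sites, had 0.762% to 9.07% in STD (median 3.44%) and 0% to 3.61% in ENR (median 0.500%). The difference in these low promoters was at most a few points except in Tnfsf15.

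The same 4 CpGs near the start of the antisense transcript Gm26801 supplied a window (chr1:177443001-177444000), the promoter of Gm26801 and the body of Zbtb18, a transcriptional repressor needed for neuron differentiation. They lie inside the Zbtb18 gene and upstream of the promoters of its basic transcripts. STD mice had 1.08% to 5.32% (median 2.18%) and ENR mice 0% to 0.543%, with 5 ENR mice at 0% and no overlap (difference -2.36 ± 0.657 points, SE, in the window). Phlda1, a pleckstrin homology-like protein, likewise counted with 9 CpGs as a window and as a gene body and differed by -2.52 points. Dhx15, a splicing helicase, had 0.816% to 8.80% in its promoter window in STD and 0% to 1.28% in ENR. Greb1l and Itgb3bp differed by -3.35 and -1.68 points. All of these lay below 9% in every aged mouse, and none was called.

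In intergenic DNA, the window chr13:104510001-104511000 was at 0% in all 7 ENR mice, whereas STD mice had 0% to 23.1% (median 8.33%) and 1 of them was at 0%. Its 5 CpGs were all lower in ENR (-9.91 ± 2.71 points, SE), and Young STD mice had 4.85% to 39.0%. The highly methylated window chr10:118126001-118127000 had 88.8% to 100% in STD (median 91.7%) and 71.0% to 91.7% in ENR (median 83.3%). Here 6 of 7 ENR mice lay below every STD mouse, 5 of 6 CpGs were lower, and the difference was -11.9 ± 3.24 points (SE). With the composition index in the model, it was -11.6 points at the first window and -13.4 points at the second.

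The gene bodies named as higher in ENR differed by 4.77 to 22.3 points, and the range of the Young STD mice is given for each. Ryr3, an intracellular calcium release channel of neurons, had 25.3% to 61.7% in STD (median 36.3%), 60.4% to 71.0% in ENR (median 65.3%) and 60.8% to 66.7% in Young STD mice. All 6 intronic CpGs were higher in ENR, and 5 of 7 ENR mice lay above every STD mouse (22.3 ± 5.93 points, SE). Rem1, a small GTPase that inhibits voltage-gated calcium channels, had 45.6% to 64.8% in STD (median 57.3%), 63.8% to 87.9% in ENR (median 78.4%) and 60.8% to 86.5% in Young STD mice. Its difference was 19.7 ± 4.76 points (SE), with 4 of 5 CpGs higher. Since the Aged STD mice are in both comparisons, no test of a return to the young level was made.

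Lpin1, which encodes a phosphatidate phosphatase of lipid synthesis, had 30.4% to 61.8% in STD (median 36.8%) and 40.2% to 74.4% in ENR (median 60.5%), with 10 of 11 CpGs higher and 43.6% to 61.1% in Young STD mice. Fam83d, a spindle protein, had 67.9% to 87.8% (median 75%) and 82.6% to 100% (median 94.0%), with all 5 CpGs higher and 82.3% to 97.3% in Young STD mice. Within the STD range lay 4 ENR mice at Lpin1 and 1 at Fam83d. Pdgfa, the ligand of a receptor on oligodendrocyte precursors, had 0.699% to 10.9% in STD (median 8.33%) and 9.26% to 20% in ENR (median 13.7%), and Young STD mice had 5.67% to 14%. The differences were 20.3 ± 5.97 points for Lpin1, 15.9 ± 3.63 for Fam83d and 7.83 ± 2.23 for Pdgfa (SE).

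Cerkl, a relative of ceramide kinase, was one of the 2 gene bodies whose groups did not overlap among those with values in all mice. STD mice had 0% to 3.37% (median 1.62%) and ENR mice 3.56% to 9.93% (median 6.29%), with 3.28% to 6.14% in Young STD mice. Of its 18 CpGs, 13 are those averaged in the body of Neurod1, the transcription factor of granule neuron differentiation that lies within Cerkl. Neurod1 had 0% in 6 of 7 STD mice and 1.03% in the other, and 0.744% to 10.6% in 6 ENR mice (median 2.52%). The difference for Neurod1 was 3.86 ± 1.34 points (SE), and for Cerkl 4.77 ± 1.18 points.

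Among gene bodies lower in ENR, Slc39a7, a zinc transporter of the endoplasmic reticulum, had 17.5% to 40.2% in STD (median 30.9%) and 4.601% to 23.2% in ENR (median 16.4%). The 6 CpGs, printed above, lie within 125 bases, and 5 of them were lower in ENR. The largest differences, -36.1 and -25.01 points, were at the last 2 CpGs, those within 1000 bases of the Gm20427 start. In the mean of the 6 CpGs, 5 of 7 ENR mice lay below every STD mouse (-14.9 ± 4.21 points, SE). Tph2, the neuronal enzyme that limits serotonin synthesis, had 6.60% to 25.4% in STD (median 13.1%) and 0% to 14.1% in ENR (median 6.68%), with 13.5% to 29.8% in Young STD mice. Ran, the GTPase of nuclear transport, had 0% to 16.7% in STD and 0% to 10.4% in ENR. Of the 6 Ran CpGs, only 2 were lower in ENR and 4 were higher, with CpG differences from -39.4 to 4.25 points. Pnmal2 differed by -4.92 points. The groups overlapped in each of these 4 genes.

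**Figure D4:**
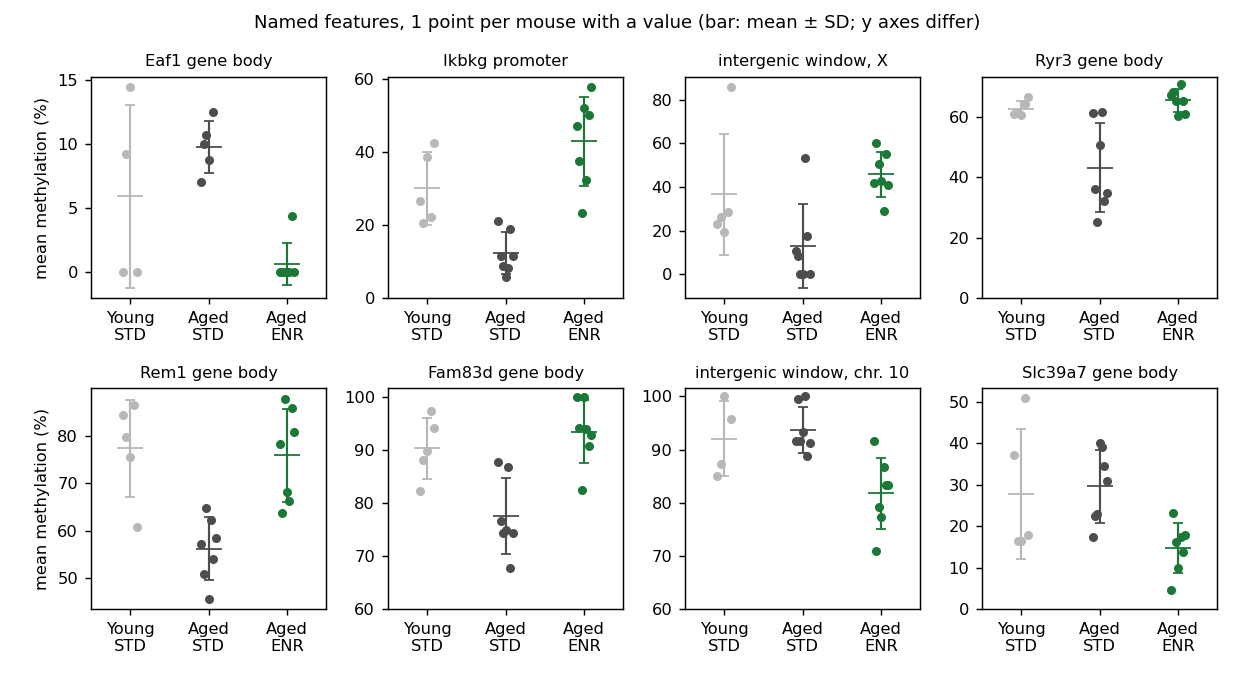
Mean methylation (y axes, percent, with different ranges) of 8 named features by group (Young STD, Aged STD, Aged ENR), with 1 point per mouse with a value and bars for mean ± SD. ENR points lie above all STD points at Ikbkg and below them at Eaf1, and the groups overlap in the other 6 features.

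Genes of the dentate gyrus and of neuronal plasticity were examined in lists, and no member of any list was called. Neurogenesis genes had a median difference of 0.128 points over 25 promoters and 0.948 points over 20 gene bodies, against 0.0648 and 1.24 points over all genes tested. Among mice with an index of at least 25%, the list had 0.0402 points over 23 promoters and -0.707 points over 18 bodies, against 0.0254 and -0.363 points over all genes. An unadjusted p under 0.05 was reached by the promoter of Disc1, a scaffold of neuron development, which had 0% to 5.41% in STD (median 1.19%) and 0% to 0.397% in ENR, and by the body of Neurod1. The Disc1 difference was -1.93 points with all mice, -0.281 points among mice with an index of at least 25% and 0.0661 points with CpGs measured in all 14 mice. Prox1, the granule neuron transcription factor, and Bdnf, the activity-regulated neurotrophin, were named after their values were seen. The Prox1 promoter had 0.5681% to 3.52% in STD and 0.254% to 2.32% in ENR, and that of Bdnf, with 80 CpGs, 1.11% to 4.40% and 1.11% to 2.66%. The groups overlapped in both genes.

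Activity-regulated genes had a median difference of 0.152 points over 20 promoters and -0.219 points over 13 gene bodies (5 of them higher in ENR), with 0 members at an unadjusted p under 0.05. The member with the smallest p among their gene bodies was Nr4a2, a nuclear receptor induced by activity (3.60 ± 2.83 points, SE, and -0.474 points among mice with an index of at least 25%). Glutamate receptors had -0.0805 points over 23 promoters and 0.0386 points over 21 bodies (11 higher), again with 0 members at an unadjusted p under 0.05. The AMPA receptor gene Gria1 differed by 2.48 ± 1.30 points in its promoter, and the kainate receptor gene Grik2 by 11.0 ± 6.36 points in its body. The Grik2 value was 3.12 points among mice with an index of at least 25% and turned to -3.39 points with CpGs of 3 or more mice per group. GABA genes had -0.242 points over 12 promoters and 1.73 points over 11 bodies. Of these, the promoter of Gabrb2, a GABA-A receptor subunit, had 0% to 0.263% in 6 STD mice and 0% to 7.41% in 7 ENR mice (unadjusted p = 0.0347, adjusted p = 0.951, limma). Without the 4 mice of low index, the body medians were -0.865 points for activity-regulated genes (2 of 13 higher), -2.34 for glutamate receptors (6 of 20) and -0.945 for GABA genes (4 of 11), and the promoter medians 0.0576, -0.309 and -0.378 points. Gabra4, a further GABA-A subunit, had 0% to 74.1% in STD and 38.2% to 86.4% in ENR in its body (5 mice each).

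Gene bodies of synaptic, potassium channel, axon guidance and growth factor genes lay mostly above STD when all mice were used. Synaptic scaffold, adhesion and release genes had a median of 3.24 points with 20 of 24 bodies higher in ENR, and potassium channels 1.88 points with 17 of 21. Axon guidance genes had 2.09 points with 27 of 34, and growth and neurotrophic factor genes 2.63 points with 17 of 21. Over all bodies 64.3% were higher. Among mice with an index of at least 25%, the medians of the 4 lists were 0.495, -1.53, -1.34 and 0.0507 points, with 13 of 22, 8 of 21, 11 of 33 and 10 of 19 bodies higher, against 45.4% over all bodies. With all mice, 1, 0, 1 and 1 members of the 4 lists had an unadjusted p under 0.05. The axon guidance member was Sema3f, a repulsive guidance ligand, with 2.59% to 8.06% in STD and 3.72% to 22.9% in ENR. The groups overlapped at Sema3f.

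The promoters of the same 4 lists had medians of 0.237, -0.0705, 0.296 and -0.0413 points, and of 0.161, -0.258, 0.0930 and -0.0497 points among mice with an index of at least 25%. Nlgn3, an X-linked postsynaptic adhesion gene, had 0% to 24.7% in STD (median 7.86%) and 0% to 50% in 6 ENR mice (median 38.1%), a difference of 20.03 ± 7.86 points (SE). The voltage-gated potassium channel gene Kcna4 had 0% to 1.87% in STD and 0% to 3.77% in ENR. Unc5d, a netrin receptor gene, was at 0% in all 7 STD mice and at 0% to 4.30% in 6 ENR mice. Igf2, the imprinted insulin-like growth factor gene, had 0% to 4.39% in STD (median 2.56%) and 1.69% to 12.2% in ENR (median 6.04%). None of them was called (adjusted p = 0.951, limma). In gene bodies, Kcnk1 differed by 14.5 points in library series 27 and by -5.28 points in series 37.

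Genes that write, erase or read DNA methylation had a median of 0.384 points over 14 promoters and 0.351 points over 10 bodies, of which 1 was higher and 1 lower at an unadjusted p under 0.05. The promoter of Mbd2, which encodes a reader of methylated DNA, had 0.646% to 1.27% in STD and 0.909% to 5.02% in ENR. Developmental transcription factors had 0.248 points over 38 promoters and 0.290 points over 36 bodies, with Hoxa10 (promoter, 2.11 ± 0.832 points, SE), Irx3 (body, 2.94 ± 1.24 points) and Hoxc13 (body, -2.14 ± 0.927 points) at an unadjusted p under 0.05. Hoxc13 was named after its values were seen. Without the 4 mice of low index, the medians were 0.286 and -0.0611 points for promoters and bodies of the methylation genes and 0.0920 and -0.366 points for those of the developmental factors.

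Tiam1, Tshz2 and Cux2 were taken up by the study on these same samples, so their direction is not independent evidence, and Npas4 was taken up in younger mice of the study. Tiam1 activates Rac in spines, Tshz2 and Cux2 are homeobox transcription factors of neurons, and Npas4 is an activity-induced transcription factor. The Npas4 promoter had 1.73% to 37.9% in STD (median 20.1%) and 0% to 14.0% in ENR (median 10.5%), a difference of -8.78 ± 5.25 points (SE), and 1 ENR mouse lay below every STD mouse. The Npas4 difference was -10.8 ± 5.27 points with the composition index in the model (adjusted p = 0.940, limma). It was -12.0 ± 4.53 points among mice with an index of at least 25% (adjusted p = 0.950, limma). The promoters of Tiam1, Tshz2 and Cux2 differed by -0.0907, -0.158 and -0.203 points, each of which changed sign under other settings. Their gene bodies had 24.4% and 27.6% for Tiam1, 48.6% and 53.2% for Tshz2, and 37.2% and 40.7% for Cux2, in STD and ENR. With the composition index in the model, the body differences were 0.579, 1.11 and 0.653 points, and among mice with an index of at least 25% they were -1.26, -0.525 and 0.169 points. None of the 4 genes was called, and single cytosines were not tested here.

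Marker genes of the cell types that the dissected tissue can hold were not called either. Granule neuron markers had medians of -0.231 points over 6 promoters and 2.18 points over 6 bodies, CA pyramidal neuron markers -0.351 over 4 and 4.40 over 3, and interneuron markers -0.485 over 3 and 0.248 over 5. Astrocyte markers had 0.244 points over 5 promoters and 0.301 over 5 bodies, oligodendrocyte markers 0.502 over 5 and 4.40 over 4, microglia markers 5.69 for 1 and 1.196 over 3, and endothelial markers 0.505 for 1 and 2.46 over 3. Among mice with an index of at least 25%, the body medians were -0.342 points for granule neuron, -0.263 for CA pyramidal neuron (2 bodies), -0.978 for interneuron (4), -3.22 for astrocyte (2), 1.95 for oligodendrocyte, 0.145 for microglia and -2.66 for endothelial markers. The promoter medians were then 0.0393, -0.826, 0.400, 0.275, 0.159, 4.26 and 0.884 points in the same order. The interneuron gene Npy had 0% to 10.6% in the promoter in STD and 0% in all 6 ENR mice with a value (-3.79 points, which turned to 5.04 with CpGs of 3 or more mice per group), and Pvalb, a calcium-binding protein of fast-spiking interneurons, had 38.03% to 88.4% and 61.9% to 98.4% in its body (5 mice each). These were the 2 markers with an unadjusted p under 0.05. Shares of cell types were not measured, and their part in the differences was not tested.

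Spread between mice was compared with the deviation of each mouse from the mean of its group. The test called 908 of 40978 windows (2.22%), 437 with the larger spread in ENR (1.07%) and 471 with the smaller (1.15%). It called 257 of 15704 promoters (1.64%), 124 with the larger spread in ENR (0.790%) and 133 with the smaller (0.847%), and 34 of 9268 gene bodies (0.367%), 17 in each direction (0.183% and 0.183%). Without the 4 mice of low index, 226 windows had the larger spread in ENR and 593 the smaller, with 4 STD and 6 ENR mice. The direction followed the group that had fewer mice: leaving out any 1 STD mouse gave 341 to 478 windows with the larger spread in ENR and 620 to 733 with the smaller, and leaving out any 1 ENR mouse gave 553 to 668 and 392 to 466. No direction is therefore read from these counts. In gene bodies, spread at an unadjusted p under 0.05 was larger in ENR in 360 and smaller in 791 with all mice, and larger in 470 and smaller in 414 after adjustment for library series and composition index. In 421 of the 437 windows (96.3%) and 430 of the 471 (91.3%), the quieter group had an SD under 1 point, mostly because its mice were at 0%. When deviations were taken from the median, limma called 0 windows, 0 promoters and 0 gene bodies (1144, 419 and 246 at an unadjusted p under 0.05), and 0, 2 and 0 after adjustment for library series and composition index.

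The windows named for spread show this pattern. The promoter window of Samd13 (chr3:146685001-146686000) had 4.29%, 5.39% and 5.31% in 3 STD mice and 0% in the other 4 and in all 7 ENR mice. The promoter window of Nfe2l1, a stress-response transcription factor (chr11:96829001-96830000), had 4.31%, 6.02% and 7% in 3 STD mice and 0% in all other aged mice. In the opposite direction, the window of Gm19569 and Lrrc1 (chr9:77545001-77546000) had 5.43%, 6.73% and 7.63% in 3 ENR mice, 0.725% in 1 STD mouse and 0% elsewhere. The window at the Ankrd10 start (chr8:11636001-11637000) reached 5.10% in ENR and 0.161% in STD. The 2 intergenic windows, on chromosomes 17 and 19, had SDs of 2.83 and 0 points in STD and 0.169 and 2.21 points in ENR.

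Between-mouse spread depended on the level of a feature more than on housing. Among features with values in all 14 mice, windows had a median SD of 2.502 points in STD and 2.55 in ENR, and promoters 1.44 and 1.48. Windows of 20% to 80% methylation had 13.7 and 13.0 points. Gene bodies had 7.99 points in STD and 6.39 in ENR, and those of 20% to 80% methylation had 11.5 and 8.93, with the larger SD in STD in 70.4% of 2968. Over all gene bodies tested, the deviations were larger in ENR in 39.3%, in 52.9% after adjustment for library series and composition index, and in 50% among mice with an index of at least 25%. At the 2267 windows of 20% to 80%, a mouse deviated from its group mean by 8.33 to 13.5 points in STD and by 8.62 to 12.8 points in ENR.

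**Figure D5:**
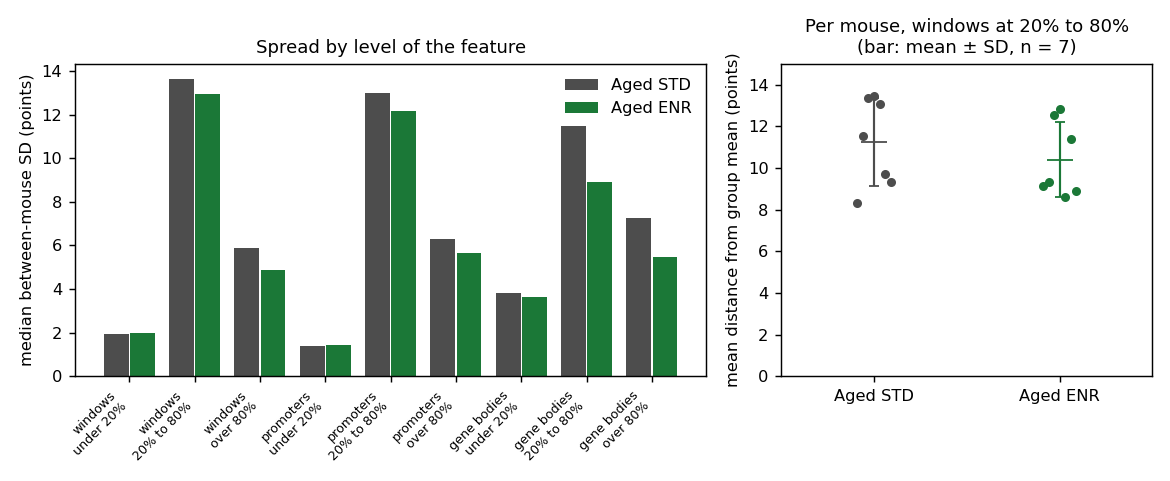
Median between-mouse SD (left y axis, points) by feature and level class in Aged STD (grey) and Aged ENR (green), and the mean distance of each mouse from its group mean over 2267 windows of 20% to 80% methylation (right, points, 1 point per mouse with mean ± SD, n = 7 each). Gene bodies of 20% to 80% have median SDs of 11.5 and 8.93 points, and the mice of both housings overlap on the right.

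A single value of spread, the mean distance between mice, did not pass the test. Over 19137 windows, 2 STD mice differed from each other by 5.42 points on average and 2 ENR mice by 5.24 points, and a STD and an ENR mouse differed by 5.29 points. The difference was -0.189 points (two-sided exact permutation test, p = 0.704). It was -0.101 points (p = 0.890, exact permutation test) among mice with an index of at least 25%. The distance between housings lay between the distances within them.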

How the data were processed

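The authors prepared 1 RRBS library from the dissected dentate gyrus of each mouse and sequenced it as 75-base single-end reads. Reads were trimmed, mapped to mm10 with Bismark and summarised with methylKit. The submitters' processing notes name Trim Galore 0.4.0, cutadapt 1.8.1, Bismark 0.16.1 and methylKit 1.5.2. Values in the deposited table are percent methylation per position and mouse, as computed by the authors from 10 or more reads, and a position is listed when 3 or more mice of every group had a value. It holds no read numbers, so depth is unknown, counting intervals could not be computed and reads were not tested. Of 762182 cytosines, 20 outside CpG context and 183 on Y or the mitochondrial genome were left out. Columns matching no described sample numbered 0. Young ENR mice were not analysed here. No pair of mice had identical profiles (at most 0.463% of partial values were equal).

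Strands of a CpG were averaged. Windows, promoters and gene bodies (GENCODE M21, basic transcripts) used CpGs measured in 5 or more mice of each housing, and a mouse needed 3 or more of them. Gene bodies can contain the promoter of another gene. Percents were tested with limma 3.58.1 in R 4.3.3, with a variance trended on the mean level, tested on both sides, adjusted by Benjamini-Hochberg within each kind of feature, and called at an adjusted p under 0.05. A feature without any variation among the mice was dropped. Spread used absolute deviations from the group mean in the same model. Class means and distances were tested with exact permutation tests over 3432 labellings. CpG-island-like windows had a GC content of at least 50% and an observed to expected CpG ratio of at least 0.6. Code was tested on simulated data, and Python 3.11.15 with numpy 2.4.6, scipy 1.17.1, pandas 2.3.3 and matplotlib 3.10.9 was used for the rest.

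The members, gene lists and tests were chosen with earlier results of these data known. Named features were the 5 windows and the 6 promoters and 6 gene bodies with the smallest unadjusted p in each direction among those with values in all 14 mice, the list member with the smallest p in promoters and in bodies, the 4 genes the study took up, and 3 windows per direction for spread, of which 3 gene bodies are not reported here. Eaf1 (called), its single CpGs, Fam3a, G6pdx, Mlxip, Hoxc13, Prox1 and Bdnf were added after their values were seen. Alternatives changed the CpGs averaged, window size and offset, covariates (library series, composition index, replicate block), mice in the fit, variance prior, scale and threshold, and left out each mouse in turn. The fit on mice with a composition index of at least 25% and the block for the distance were chosen after seeing the data. Groups and replicates are separate mice per the labels.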

Additional observations from a re-analysis of the deposited data

Results flagged for a closer look

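In 166 groups of 7 mice, the highest or lowest mouse was compared with its nearest neighbour, and in 21 of them the gap took up more of the whole range than Dixon's 95% critical value for 7 mice (which chance exceeds in about 1 in 20 groups). Many of these groups had most mice at or near 0%, where a single raised value is enough.

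Among Aged STD mice, the highest value stood apart at the X chromosome window (53.5%, the others 0% to 17.5%), the Lpin1 gene body (61.8%, the others 30.4% to 41.3%), the Homer1 promoter (11.3%, the others 0.0746% to 4.57%), the Cux2 promoter (10.7%, the others 2.48% to 4.97%) and the Tiam1 promoter (3.95%, the others 0% to 1.57%). It also did so at the Fam19a4 promoter and its window (3.82%), the Ubqln1 window (0.840%, the others at 0%), the Neurod1 gene body (1.03%, the others at 0%) and the Kcna4 promoter (1.87%). The lowest STD mouse stood apart at the Ran gene body (0%, the others 12.2% to 16.7%).

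Among Aged ENR mice, the highest value stood apart at Eaf1 (4.41%, the others at 0%), the Tnfsf15 promoter (7.25%), the Prdm9 promoter (3.61%), the Gabrb2 promoter (7.41%, the others 0% to 2.78%), the Phlda1 gene body and its window (1.15%), the Disc1 promoter (0.397%, the others at 0%) and the Tiam1 promoter (2.47%). It also stood apart in the class of CpGs 5 to 50 kb from a start (34.2%, the others 28.5% to 31.0%). The lowest ENR mouse stood apart at the Npas4 promoter (0%, the others 9.20% to 14.0%).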

How the results depend on the processing

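Window and promoter means kept 0 calls under every alternative run, except for 1 window without STD replicate 2. The 1 gene body called, Eaf1, was not called with the composition index, the Young STD mice, a variance prior without a trend, a logit scale, a difference over 10 points, centred CpGs or CpGs of 3 or more mice per group (0 gene bodies called in each). With CpGs measured in all 14 mice, 5 or more CpGs, or mice with an index of at least 25%, Eaf1 had too few CpGs or mice and was not tested, and 0 gene bodies were called. With single mice left out, 0 to 1 windows, 0 promoters and 0 to 1 gene bodies were called.

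Spread calls of 908 windows, 257 promoters and 34 gene bodies became 0, 0 and 0 with deviations from the median and 0, 2 and 0 after adjustment for library series and composition index. With CpGs measured in all 14 mice, they were 320 of 14702 windows, 240 of 8928 promoters and 17 of 3953 gene bodies. Among mice with an index of at least 25%, they were 819 of 30837 windows, 316 of 13470 promoters and 19 of 8094 gene bodies. Both settings tested fewer features than the main fit, which had 40978 windows, 15704 promoters and 9268 gene bodies. Leaving out a mouse gave 945 to 1211 windows, 226 to 425 promoters (425 without STD replicate 1) and 27 to 46 gene bodies, with more of them smaller in ENR when an STD mouse was left out and more larger when an ENR mouse was. The distance difference of -0.189 points turned to 0.272 after adjustment for library series and composition index, and ranged from -0.398 to 0.0596 (without STD replicate 5) with mice left out. The causes were not tested.

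Class differences turned negative with the index in the model in exons (-0.0837), CpGs of Young STD level under 20% (-0.0746), within 1 kb of a start (-0.00373) and 5 to 50 kb away (-0.00610). Among mice with an index of at least 25%, they were -0.0414 in promoters, -0.290 in exons, -0.226 in introns, -0.197 in intergenic DNA, -0.0161 in island-like and -0.187 in other windows, -0.133 on autosomes, -0.138 outside repeats, -0.0965 and -0.416 at Young STD levels under 20% and of 20% to 80%, and -0.0423, -0.0203, -0.312 and -0.197 with growing distance from a start.

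Of the named features, 15 turned direction in 28 of their values. Tshz2 (promoter) gave 0.00857 on the logit scale, 0.588 with CpGs of 3 or more mice, and -0.498 to 0.230 with single mice left out (positive without STD replicate 2, ENR replicate 3 or ENR replicate 4). Cux2 gave 0.145 with the index, 0.00354 on the logit scale, 0.775 at an index of at least 25%, and -0.565 to 0.849 with single mice left out (positive without STD replicate 4 or ENR replicate 6). Tiam1 gave 0.0356 on the logit scale, 1.32 with CpGs of 3 or more mice, and -0.317 to 0.341 with single mice left out (positive without STD replicate 5 or ENR replicate 6). With single mice left out, the Olig1 promoter ranged from -0.0750 (without ENR replicate 4) to 1.04 and that of Aqp4 from -0.222 (without ENR replicate 6) to 4.86. With CpGs measured in all 14 mice, promoters of Disc1 (0.0661), Homer1 (0.793) and Aqp4 (-2.66) and bodies of Tshz2 (-1.09), Cx3cr1 (-0.116) and Pecam1 (-0.926) turned, and the interneuron promoter median was 2.00. With CpGs of 3 or more mice, promoters of Npy (5.04) and Cldn5 (-0.0452) and the body of Grik2 (-3.39) turned. At an index of at least 25%, the bodies of Nr4a2 (-0.474), Tshz2 (-0.525) and Tiam1 (-1.26) turned. All of these had an adjusted p of at least 0.931 (limma).

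The replicate numbers did not pair the mice: deviations of the 7 same-numbered pairs correlated at -0.166 to 0.103, and 1 of 7 mice correlated best with its own number. With the replicate number as a block, 0 windows, 0 promoters and 0 gene bodies were called for means and 0 of each for spread, the X chromosome class had an adjusted p of 0.448 (exact permutation test), and the distance had p = 0.641 (exact permutation test).

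Read depth is unknown, and the median SE of a window difference was 2.69 points.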
